A study of Mus musculus with 15 samples.

Results

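The 9 genes described here are red cell genes measured in haematopoietic stem cells (HSC), the rare bone marrow cells from which all blood lineages arise. They were listed by name and chosen by 1 measured value, their presence in the authors' filtered count table. All 9 were present, out of 16154 genes in that table: the adult β-globin genes Hbb-bs and Hbb-bt, the adult α-globin genes Hba-a1 and Hba-a2, the haem enzyme gene Alas2, the membrane anion exchanger gene Slc4a1, the carbonic anhydrase gene Car2, and the transcription factor genes Klf1 and Gata1. The authors set a minimum of more than 5 reads and 2 CPM (counts per 1000000) in at least 2 libraries, and of the deposited genes all 16154 exceeded 2 CPM and 16122 exceeded 5 counts in at least 2 libraries. Alas2 lay nearest to that minimum, with group medians of 2.11, 2.70 and 0.389 CPM in young, aged and treated aged mice, and none of the listed genes lay outside it. The list was drawn up with earlier results of these libraries known, so the counts of members below are a description.

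HSC were sorted as Lin−Sca-1+cKit+CD150+CD48− cells from individual C57BL/6 mice labelled female, with 5 young mice (6 to 12 weeks), 5 aged mice (20 to 24 months) and 5 aged mice that had received nicotinamide riboside (NR), a precursor of the coenzyme NAD, at 3 mg/ml in the drinking water for 2 months. No genetic modification is given for any group. Each library came from 20000 to 25000 cells of 1 mouse, so the replicates are mice. The antibodies used to deplete lineage-positive cells included Ter119, which binds a surface antigen of maturing red cells, and the CD48− gate removes many cells that have left the stem cell state.

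Red cells are made by stepwise commitment. GATA1 and KLF1 are DNA-binding factors that switch on the erythroid programme in progenitors, while haemoglobin chains, the haem enzyme ALAS2 and the membrane protein band 3 (the product of Slc4a1) accumulate as erythroblasts mature. Adult haemoglobin pairs α chains with β chains, and carbonic anhydrase 2, abundant in red cells, is also made in many other cells. In the accounts below, the 4 globin genes, Alas2 and Slc4a1 are called the 6 mature red cell genes, and Klf1 and Gata1 the 2 early factors; Car2 is kept apart from both.

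Libraries held 764119 to 13318989 counts, with medians of 2685764 in young, 6007460 in aged and 3162434 in NR-treated aged mice, so 3 counts corresponded to 0.254 to 3.89 CPM. The 12 genes listed for HSC and their gates (among them Procr, Slamf1, Kit, Hlf and Mecom) had counts in all 15 libraries and summed to 1519 to 2045 CPM. Cd48, whose protein was gated against, had medians of 4.82 CPM in young, 27.3 CPM in aged and 3.89 CPM in NR-treated aged HSC. A pair of the young libraries went against their label: replicates 1 and 5 held 284 and 391 counts on 4 Y-linked genes, whereas the other 13 libraries held 2 to 20. Counts of genes called against young HSC are therefore given with and without this pair, and single values of other genes with it unless stated. Of the 12 HSC genes, Procr, Slamf1, Ly6a and Hoxb5 were called higher and Cd34 and Flt3 lower with age, with or without this pair. Slamf1 and Cd48 were lower with NR than in untreated aged HSC. Of all genes 9.68% were higher and 9.63% lower with age, and 4.18% lower with NR. A call is an adjusted p under 0.05 in edgeR's quasi-likelihood test.

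The α and β genes each come as near-identical neighbours, which bears on how their counts can be read. Hbb-bs (chr7:103826534-103828096, minus strand) and Hbb-bt (chr7:103812524-103813996, minus strand) lie 12537 bases apart, and their coding sequences of 444 bases differ at 1 base. Hba-a1 (chr11:32283511-32284465, plus strand) and Hba-a2 (chr11:32296489-32297298, plus strand) lie 12023 bases apart and also differ at 1 of 429 coding bases. The final 150 coding bases of each, up to the stop codon, hold that single difference, shown in capitals (GENCODE M21 transcripts, GRCm38):

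Hbb-bs: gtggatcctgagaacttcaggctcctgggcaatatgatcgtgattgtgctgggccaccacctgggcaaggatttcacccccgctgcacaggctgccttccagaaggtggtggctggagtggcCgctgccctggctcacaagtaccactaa
Hbb-bt: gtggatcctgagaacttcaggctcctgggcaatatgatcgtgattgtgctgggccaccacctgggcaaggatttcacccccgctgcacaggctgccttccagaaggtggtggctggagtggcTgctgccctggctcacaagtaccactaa
Hba-a1: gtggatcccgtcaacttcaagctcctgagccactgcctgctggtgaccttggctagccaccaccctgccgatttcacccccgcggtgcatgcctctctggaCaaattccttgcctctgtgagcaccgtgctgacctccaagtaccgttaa
Hba-a2: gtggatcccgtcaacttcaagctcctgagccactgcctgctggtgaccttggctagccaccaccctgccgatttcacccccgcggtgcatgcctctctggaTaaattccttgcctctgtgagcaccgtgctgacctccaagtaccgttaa

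Reads were 72 bases long. Of the 72-base stretches of the Hbb-bs transcript, 64.5% occur unchanged in Hbb-bt, and 56.8% of those of Hbb-bt occur in Hbb-bs. The shares were 62.9% for Hba-a1 and 81.8% for Hba-a2. How reads matching both copies were counted is not given in the sources used here, so the values of the single copies are uncertain and the pair is the firmer unit. Apart from the stretches shared within each pair, no 72-base stretch of these transcripts occurred in any other annotated gene. Whether a shared stretch also occurs in a further gene was not checked.

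Because the globin genes moved together across libraries, the proximal promoters were also read. Of the 9 genes, 7 had an entry among 32851 RefSeq promoters (GRCm38.p6). The 150 bases before the RefSeq start are shown for a β gene, an α gene and an early factor, from chr7:103827929-103828078 (minus strand), chr11:32296342-32296491 (plus strand) and chrX:7967911-7968060 (minus strand). Capitals mark CACCC (the core of the sequence that KLF1 is known to bind), CCAAT and GATAA (the core of the sequence that GATA factors bind), searched on both strands:

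Hbb-bs: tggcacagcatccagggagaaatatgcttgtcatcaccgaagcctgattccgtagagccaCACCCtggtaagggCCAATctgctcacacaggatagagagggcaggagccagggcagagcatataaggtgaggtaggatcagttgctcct
Hba-a2: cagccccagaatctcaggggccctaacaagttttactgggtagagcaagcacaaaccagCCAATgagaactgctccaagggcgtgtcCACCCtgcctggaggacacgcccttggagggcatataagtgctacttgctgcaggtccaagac
Gata1: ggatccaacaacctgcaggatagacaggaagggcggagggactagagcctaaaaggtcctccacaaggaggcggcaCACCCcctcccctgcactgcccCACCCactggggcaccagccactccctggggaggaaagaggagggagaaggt

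In GENCODE M21 the windows of Hba-a1, Hbb-bt, Klf1 and Alas2 hold 150, 73, 54 and 42 bases of annotated exons and are not shown, and the 3 shown hold 0 to 3. The windows of Hba-a1 and Hba-a2 hold the same sequence, offset by a few bases, so their matches are not separate finds. CACCC was found in 7 of 7 windows (3 of the 3 shown), against 37.4% of all promoters over the same length. The first base of CACCC lay 90 bases before the start of Hbb-bs, 60 before that of Hba-a1 and 63 before that of Hba-a2. The longer CCACACCC, which contains CACCC, was found in Hbb-bs alone among the 7, against 2.18% of all promoters. CCAAT was found in 5 of 7 windows (all 4 globin genes and Klf1; 2 of the 3 shown) against 24.5%, and GATAA in 2 of 7 (Alas2 and Klf1; 0 of the 3 shown) against 13.3%. These are letter matches in short windows and describe no binding.

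The first question was whether red cell transcripts in HSC differed with age. The 6 mature red cell genes were higher in aged than in young HSC on the fitted values, by a median of 1.70 on the log2 scale against −0.03 over all genes tested, but the young libraries spread widely and only 2 of the 6 passed the test. Of the 9 genes, Hbb-bt, Hba-a1 and Car2 rose with age and Gata1 fell, while 5 did not pass. Across all genes, 19.3% were called in this comparison, 9.68% higher and 9.63% lower. In bulk libraries, a change in the number of cells of a type and a change in RNA per cell cannot be told apart, here and in every comparison below.

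**Figure D1:**
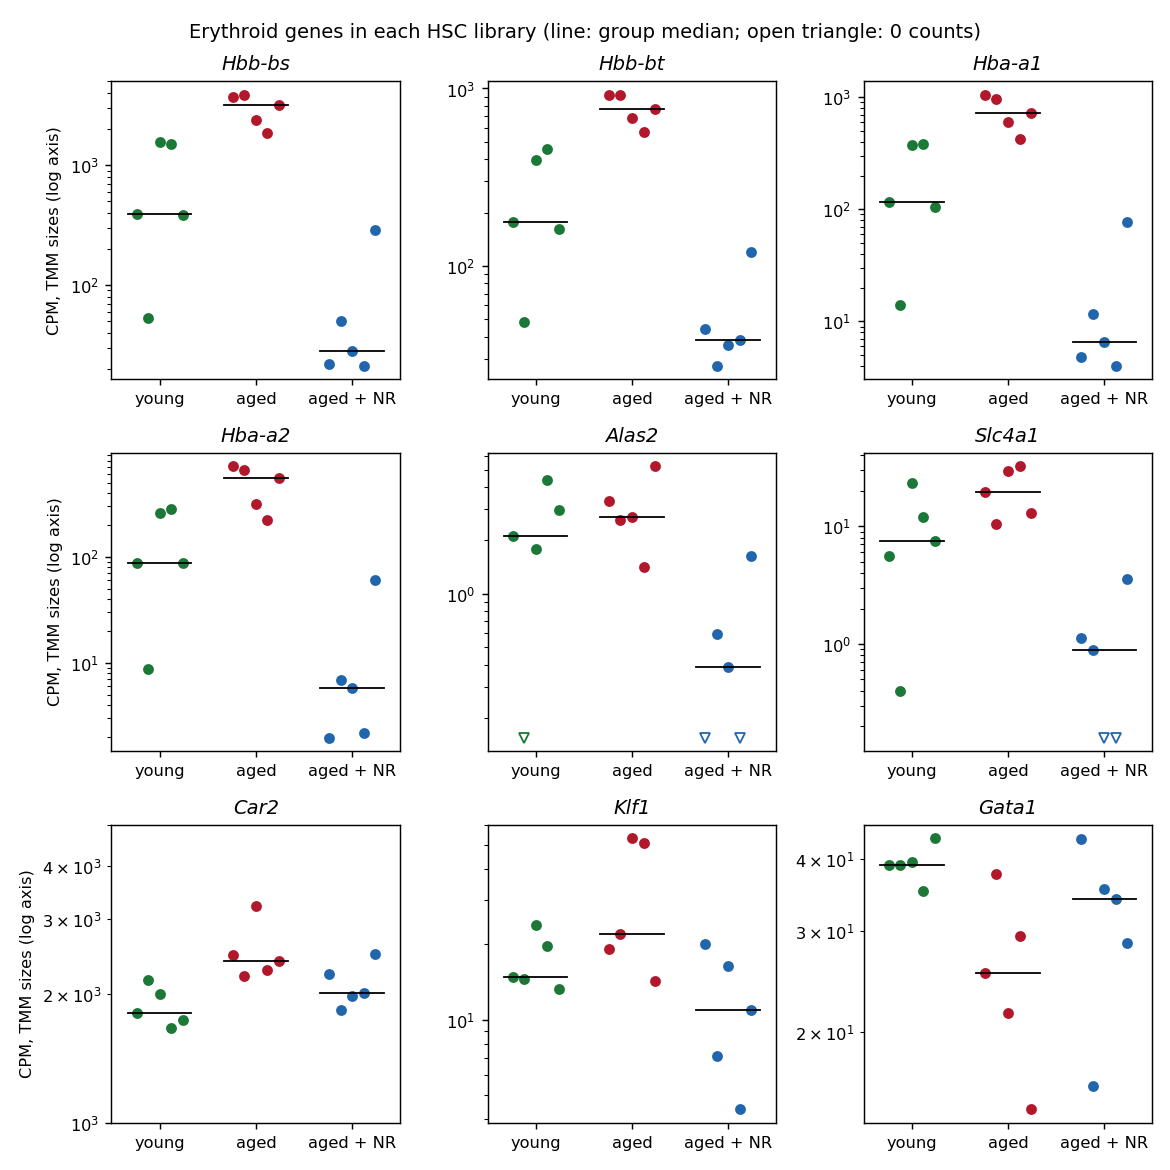
Level of each gene in each library as CPM with trimmed-mean (TMM) library sizes, on a log axis whose range differs by gene, with replicates 1 to 5 from left to right in each group, the group median as a line and libraries with 0 counts as open triangles. Globin levels are highest in the aged group and lowest in 4 of the 5 NR-treated libraries, whereas Car2, Klf1 and Gata1 span a much narrower range.

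Hbb-bs, the adult β-globin gene with the higher counts in most of these libraries, stood at 392, 53.0, 1544, 1492 and 381 CPM in young replicates 1 to 5. In aged HSC it stood at 3726, 3875, 2395, 1868 and 3152 CPM. All 5 aged libraries lay above all 5 young ones, yet the young libraries differed among themselves more than 10 times, with replicate 2 lowest and replicates 3 and 4 highest. The fitted difference was 1.96 ± 0.70 on the log2 scale (SE, adjusted p = 0.0547), which missed the threshold of 0.05. That verdict held in 6 of 10 alternative fits and in 13 of 15 fits leaving out 1 library, and Hbb-bs was called in the others.

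Hbb-bt, the second adult β-globin transcript, measured 177, 48.6, 397, 455 and 162 CPM in young replicates 1 to 5. The aged values were 922, 924, 682, 570 and 765 CPM. The groups did not overlap, and young replicate 2 was again the lowest library. Hbb-bt rose by 1.64 ± 0.42 on the log2 scale, 3.12-fold (adjusted p = 0.0112).

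The α-globin gene Hba-a1 had 117, 14.1, 374, 385 and 105 CPM in the young libraries. Aged HSC had 1058, 974, 599.9, 422 and 718 CPM. Again no aged library reached down to the young range, and the rise was 1.92 ± 0.66 (log2, 3.79-fold, adjusted p = 0.0458). It was not called with DESeq2 (adjusted p = 0.0948), with library totals (0.0576) or with a replicate block (0.0586). Its copy Hba-a2 stood at 86.7, 8.84, 257, 283 and 88.2 CPM in young and at 710.4, 663, 314, 224 and 546 CPM in aged HSC. Here the groups overlapped, with aged replicate 4 below young replicates 3 and 4, and the difference of 1.76 ± 0.68 did not pass (adjusted p = 0.0724). That verdict held in 7 of 10 alternative fits, and Hba-a2 was called in the others.

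Alas2, which makes the first enzyme of haem synthesis in erythroid cells, was close to the detection limit. Young libraries held 6, 0, 4, 12 and 11 counts and aged libraries 23, 2, 32, 8 and 26. The log2 difference was 0.43 ± 0.61 (adjusted p = 0.676), so none was detectable at this depth. Slc4a1, the anion exchanger of the red cell membrane, held 5.61, 0.402, 23.4, 12.0 and 7.55 CPM in young libraries and 19.4, 10.4, 29.2, 32.2 and 12.9 CPM in aged libraries. The groups overlapped and the difference of 1.18 ± 0.53 did not pass (adjusted p = 0.127).

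Of the early factors 1 of 2 passed. Gata1, the GATA factor required for red cell and platelet formation, was even in young HSC at 39.0, 39.0, 39.5, 35.2 and 43.4 CPM. In aged HSC it measured 25.3, 37.6, 21.6, 29.3 and 14.7 CPM, and only aged replicate 2 reached the young range. Gata1 fell by 0.68 ± 0.23 on the log2 scale (adjusted p = 0.0397). Klf1, the Krüppel-like factor that activates β-globin, stood at 14.7, 14.5, 23.8, 19.6 and 13.2 CPM in young and at 19.2, 22.1, 53.0, 50.8 and 14.3 CPM in aged HSC. The higher aged values came from replicates 3 and 4, the groups overlapped, and the difference of 0.95 ± 0.37 did not pass (adjusted p = 0.0748).

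Car2 was abundant in every library, with 1809, 2163, 2007, 1670.3 and 1739 CPM in young and 2481, 2209, 3218, 2279.5 and 2391 CPM in aged HSC. The groups did not overlap, but the gap between aged replicate 2 and young replicate 2 was narrow. Car2 rose by 0.42 ± 0.12 (log2, 1.34-fold, adjusted p = 0.0185). In all, 4 of the 9 genes did not overlap between young and aged libraries, all higher in aged HSC. Of all genes 12.4% did not overlap, 6.86% higher and 5.53% lower. Leaving out young replicates 1 and 5 can only narrow the young range, so it gives no check of this count.

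The age calls rested on few libraries. Leaving out young replicates 1 and 5, which held the Y-linked counts, left 0 of the 9 genes called by edgeR's quasi-likelihood test, with 3 at an unadjusted p under 0.05. The fitted differences were then 1.54 for Hbb-bs (adjusted p = 0.238), 1.36 for Hbb-bt (0.0874), 1.55 for Hba-a1 (0.210), 0.37 for Car2 (0.117) and −0.63 for Gata1 (0.141), each in the same direction as before. Leaving out 1 library at a time left 1 to 6 of the 9 called. The count fell to 2 without young replicate 1, 4 or 5 and to 1 without aged replicate 3. Gata1 lost its call in 7 of these 15 fits and Hba-a1 in 8, whereas Hbb-bt kept its call in all 15.

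The second question was what NR treatment of aged mice changed. All 4 globin genes, Alas2, Slc4a1 and Klf1 were lower in NR-treated than in untreated aged HSC, and Car2 and Gata1 did not pass the test. The count is 7 of 9 lower and 0 higher, where 8.07% of all genes were called, 4.18% of them lower. The median difference over the 6 mature red cell genes was −4.52 on the log2 scale, against 0.02 over all genes. This comparison shares the 5 aged libraries with the comparison by age, so the rise in one and the fall in the other are not separate observations.

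**Figure D2:**
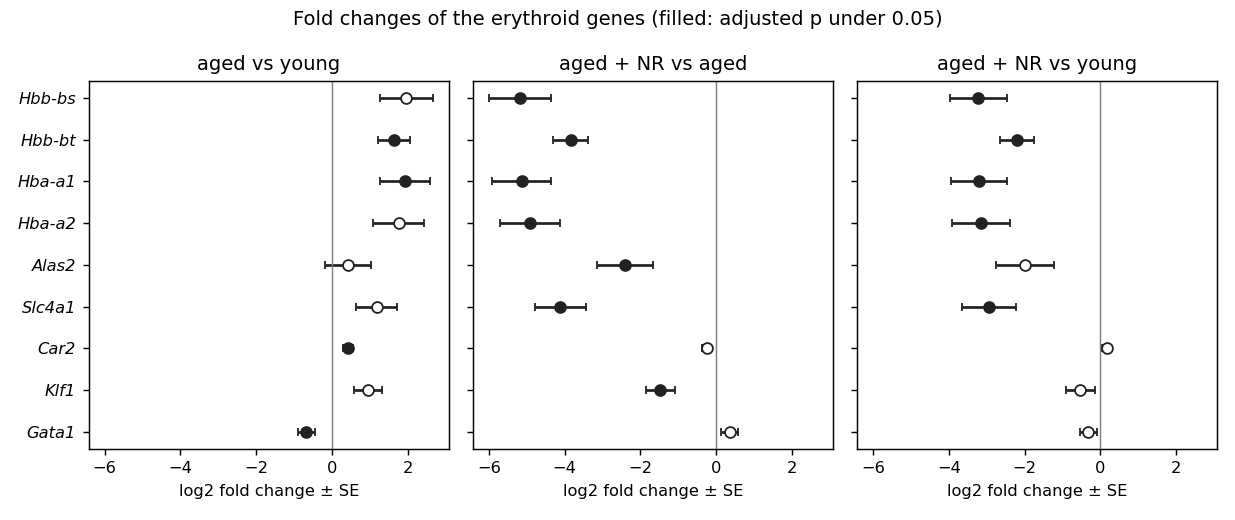
Log2 fold change of each gene (point) with its standard error (bar) in the 3 comparisons, each of 5 against 5 libraries, with filled points for an adjusted p under 0.05. The mature red cell genes lie between −5.18 and −2.41 in NR-treated against aged HSC, while Car2 and Gata1 lie within 1 log2 unit of 0 in all 3.

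Hbb-bs measured 21.8, 50.1, 28.0, 21.2 and 288 CPM in NR-treated replicates 1 to 5, against the 1868 to 3875 CPM of aged HSC. Replicate 5 stood far above the other NR-treated libraries and still well below the lowest aged one. Hbb-bs fell by 5.18 ± 0.81 on the log2 scale, or 36.2-fold (adjusted p = 0.00167). Without NR-treated replicate 5 the difference was −6.62 (adjusted p = 9.35e-05).

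Hbb-bt measured 44.3, 27.4, 35.8, 38.4 and 120.1 CPM in NR-treated HSC. The groups did not overlap, replicate 5 was again highest, and the fall of 3.85 ± 0.47 (14.4-fold, adjusted p = 0.000159) was smaller than that of Hbb-bs. Whether the falls of the 2 genes differed was not tested.

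Hba-a1 was reduced to 4.80, 11.6, 6.61, 4.02 and 76.5 CPM, and Hba-a2 to 1.98, 6.86, 5.83, 2.19 and 60.5 CPM. Neither overlapped with aged HSC, and replicate 5 stood apart in both. Hba-a1 fell by 5.13 ± 0.78 (35.0-fold, adjusted p = 0.00123) and Hba-a2 fell by 4.92 ± 0.80 (30.3-fold, adjusted p = 0.00236). Without replicate 5 the differences were −6.77 and −6.86.

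Slc4a1 held 4, 3, 0, 0 and 13 counts in NR-treated libraries, so 3 of the 5 were at or under 3 counts. Aged libraries held 134, 8, 345, 181 and 64. In CPM the groups did not overlap, and Slc4a1 fell by 4.11 ± 0.68 (17.3-fold, adjusted p = 0.00254), or by 5.19 without NR-treated replicate 5. Alas2 held 0, 2, 1, 0 and 6 counts in NR-treated libraries, with 4 of the 5 at or under 3 counts. Its fall of 2.41 ± 0.73 only just passed (adjusted p = 0.0470), overlapped in range with aged HSC, and lost its call in 10 of the 15 fits that left out 1 library. It was not called with library totals (adjusted p = 0.0560), limma-voom (0.0510), thinned counts (0.136) or a replicate block (0.0653) either. Without NR-treated replicate 5 it was −3.49 (adjusted p = 0.0225).

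Klf1 stood at 20.1, 7.15, 16.3, 4.38 and 10.9 CPM in NR-treated HSC. The range overlapped with that of aged HSC, and Klf1 fell by 1.48 ± 0.37 on the log2 scale, 2.78-fold (adjusted p = 0.0222). This call was lost without aged replicate 3 (−1.19, adjusted p = 0.0850), aged replicate 4 (0.0585), NR-treated replicate 2 (0.0541) or NR-treated replicate 4 (0.0598), and after thinning all libraries to the smallest total (−0.94, adjusted p = 0.168), where 5 of the 9 genes were called. Gata1 stood at 43.2, 16.1, 35.4, 34.0 and 28.6 CPM, a difference of 0.36 ± 0.23 that did not pass (adjusted p = 0.330). Car2 stood at 2239, 1839, 1984, 2012 and 2494 CPM, and its difference of −0.25 ± 0.12 did not pass either (adjusted p = 0.194). Of the 9 genes, 5 did not overlap between NR-treated and untreated aged libraries, all lower with NR (the 4 globin genes and Slc4a1), where 8.60% of all genes did not overlap, 3.65% higher and 4.95% lower.

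In NR-treated aged against young HSC, which shares its libraries with the comparisons above, 5 of the 9 genes were lower and 0 higher, where 4.47% of all genes were called, 2.56% higher and 1.91% lower. Hbb-bs differed by −3.22 ± 0.75 (adjusted p = 0.0148), Hbb-bt by −2.20 ± 0.45 (0.00514), Hba-a1 by −3.21 ± 0.73 (0.0133), Hba-a2 by −3.16 ± 0.77 (0.0200) and Slc4a1 by −2.94 ± 0.72 (0.0215). These groups overlapped for every one of the 9 genes, where 4.74% of all genes did not overlap (2.80% higher and 1.94% lower). Young replicate 2 lay among or near the NR-treated libraries, and NR-treated replicate 5 reached up towards the young ones. Alas2 (−1.99 ± 0.77, adjusted p = 0.165), Klf1 (−0.53 ± 0.39, 0.527), Gata1 (−0.32 ± 0.22, 0.494) and Car2 (0.17 ± 0.12, 0.4995) did not pass. Without young replicates 1 and 5 the count was again 5. It was 3 without young replicate 4 or without NR-treated replicate 1, 2 or 4, and the difference of Hbb-bs was −4.67 without NR-treated replicate 5.

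Summing the 6 mature red cell genes gives the part of each library they took up. In young replicates 1 to 5 it was 0.0810%, 0.0124%, 0.272%, 0.270% and 0.0763% of all counts. In aged HSC it was 0.633%, 0.651%, 0.357%, 0.292% and 0.4697%, and in NR-treated aged HSC 0.00752%, 0.0103%, 0.00792%, 0.00681% and 0.0562%. The medians were thus 0.0810% (0.270% without young replicates 1 and 5), 0.4697% and 0.00792%. The aged libraries lay above all others, and NR-treated replicate 5 and young replicate 2 lay inside each other's group.

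**Figure D3:**
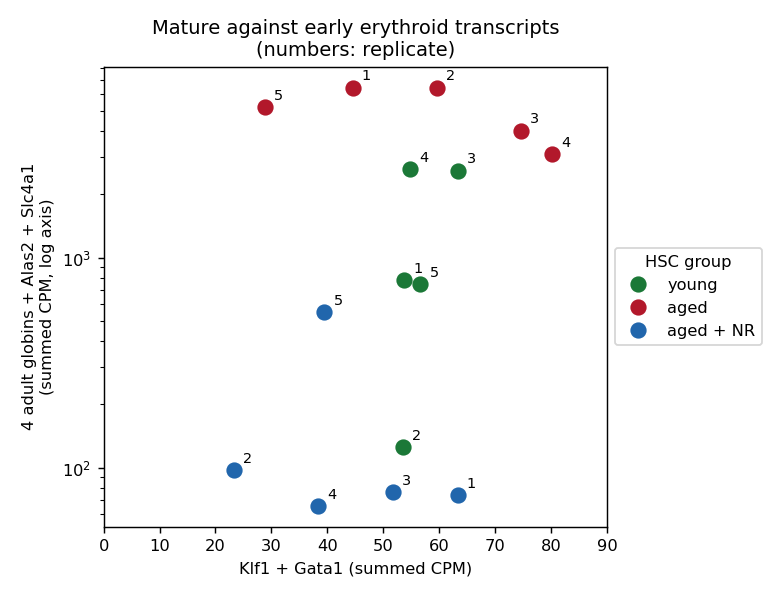
Summed CPM of the 6 mature red cell genes (vertical, log axis) against summed CPM of the 2 early factors (horizontal) in each of the 15 libraries, numbered by replicate. Mature transcripts span from 65.7 to 6449 CPM, whereas the early factors stay between 23.3 and 80.2 CPM and the 3 groups overlap on that axis.

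The early factors took up 0.00247% to 0.00751% of counts over all 15 libraries, with medians of 54.8 CPM in young, 59.7 CPM in aged and 39.5 CPM in NR-treated HSC. The ratio of mature to early counts was 14.5, 2.34, 41.0, 48.0 and 13.2 in young replicates 1 to 5. It was 145, 108, 54.0, 38.9 and 179.8 in aged HSC and 1.17, 4.19, 1.48, 1.71 and 13.9 in NR-treated HSC. Aged replicate 4 lay below young replicates 3 and 4, so those groups overlapped, whereas no NR-treated library reached the aged range. The ratio of Klf1 to Gata1 counts ranged from 0.304 to 0.602 in young, from 0.586 to 2.46 in aged and from 0.129 to 0.464 in NR-treated HSC.

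The members also differed in how closely they followed one another. On log2 CPM over the 15 libraries, which fall into 3 groups that share their differences in level, Pearson's r with Hba-a1 was 0.999 for Hbb-bs, 0.996 for Hba-a2, 0.981 for Hbb-bt and 0.946 for Slc4a1. These were the 4 closest among 10077 genes averaging 5 CPM or more. Hbb-bs had r = 0.603 with Klf1, 0.328 with Car2 and −0.25 with Gata1, and Klf1 had r = 0.056 with Gata1. The genes closest to Klf1 were Rrm2 (0.861; a subunit of ribonucleotide reductase), Rgs10 (0.839), Jchain (0.819; the joining chain of IgM and IgA), Trappc13 (0.807) and Pclaf (0.803; a PCNA-associated factor). Those closest to Gata1 were Rmi2 (0.859), Cdk6 (0.856; a cell cycle kinase), Arap3 (0.854), Kcnab2 (0.848) and Lig1 (0.837; a DNA ligase). None of the globin genes was among the 5 closest to either early factor.

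Within the β pair, the balance of counts shifted with the amount of globin. The Hbb-bs to Hbb-bt ratio was 2.22, 1.09, 3.89, 3.28 and 2.36 in young replicates 1 to 5. It was 4.04, 4.20, 3.51, 3.28 and 4.12 in aged HSC and 0.490, 1.83, 0.783, 0.552 and 2.401 in NR-treated HSC. Hbb-bt counts exceeded Hbb-bs counts in 3 of 15 libraries, all NR-treated and all among the lowest in globin. The α pair showed no such spread, with Hba-a1 to Hba-a2 ratios of 1.19 to 1.59 in young, 1.31 to 1.91 in aged and 1.13 to 2.43 in NR-treated HSC. Given the stretches that the copies share, a ratio reads the counts assigned to each copy.

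**Figure D4:**
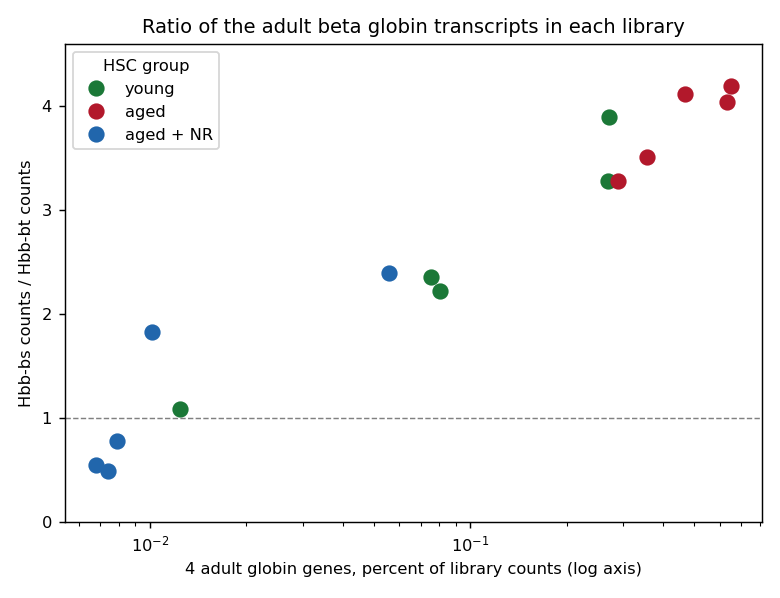
Ratio of Hbb-bs to Hbb-bt counts (vertical) against the percentage of all counts on the 4 adult globin genes (horizontal, log axis) in each of the 15 libraries, with a dashed line at equal counts. The 3 libraries under the line are NR-treated with ratios of 0.490 to 0.783, and the aged libraries lie at 3.28 or above.

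Other erythroid genes were taken from 8 lists that hold 86 genes besides the members, of which 76 were measured. The remaining 10, among them the embryonic globins and the α-globin chaperone Ahsp, were not analysed here. One of the 76, Hbq1b, passed the filter on low values through the aged libraries alone and is left out of the counts that follow. Kel also needed the aged libraries to pass (young median 0.702 CPM, NR-treated maximum 0.778 CPM) but is kept in these counts. With age, 14 of 75 rose and 8 fell, where 9.68% of all genes rose and 9.63% fell. Without young replicates 1 and 5, 7 rose and 6 fell, and fewer of all genes were called too. In NR-treated against untreated aged HSC, 2 rose and 19 fell, and in NR-treated aged against young HSC 0 rose and 3 fell, both with and without that pair. Over all genes, 3.88% rose and 4.18% fell in the former, and 2.56% rose and 1.91% fell in the latter. The shares for the comparisons counted also stand in the paragraphs on the single lists below. The median differences of the 75 genes were 0.12, −0.27 and −0.23 on the log2 scale, against −0.03, 0.02 and 0.00 over all genes.

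**Figure D5:**
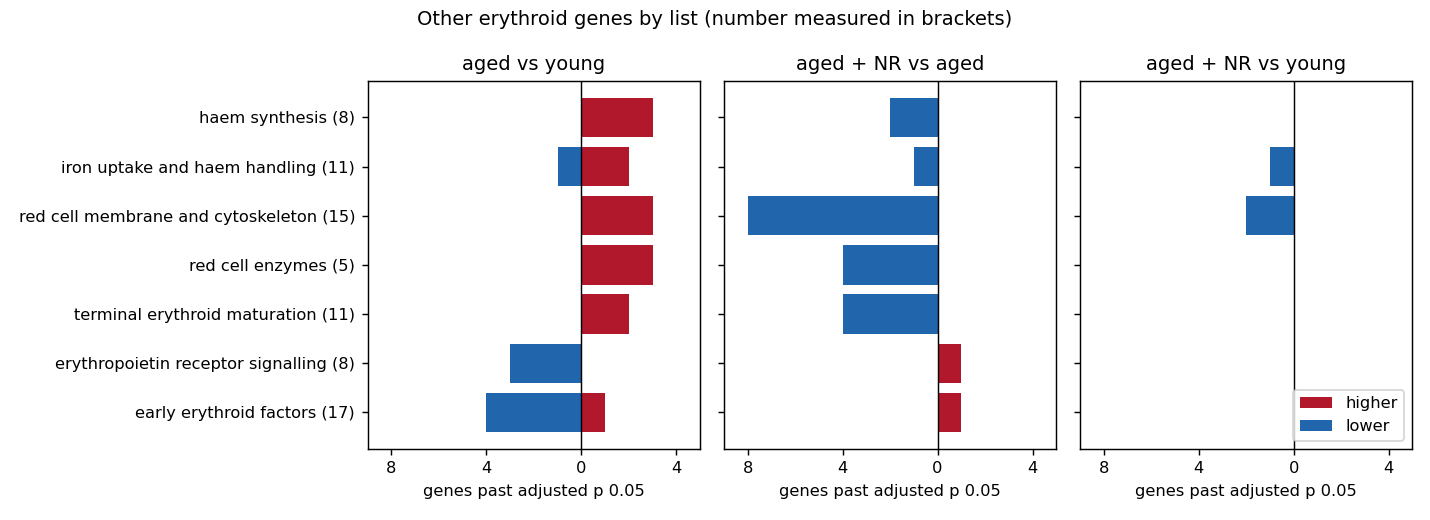
Number of genes with an adjusted p under 0.05, higher (right of 0) or lower (left of 0), in 7 erythroid lists and 3 comparisons, with the number measured in brackets. In NR-treated against aged HSC the lower calls are on the red cell membrane, enzyme, maturation, haem and iron lists, with 8 of 15 membrane genes lower, and the early factor list has 1 higher and 0 lower. Over all genes, 3.88% were higher and 4.18% lower in that comparison.

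Of 15 genes of the red cell membrane and its skeleton, 3 rose with age and 0 fell, against 1 and 1 both without young replicates 1 and 5 and with library totals. With NR 8 of 15 fell and 0 rose (among them Sptb, Ank1, Rhd, Kel, Add2 and Ermap). The 8 include Kel, which needed the aged libraries to pass the filter. Of all genes 9.68% rose and 9.63% fell with age, and 3.88% rose and 4.18% fell with NR. Rhd, the Rh blood group gene, had medians of 1.21 CPM in young, 11.3 CPM in aged and 0.847 CPM in NR-treated HSC. It rose by 2.03 ± 0.70 with age (log2, adjusted p = 0.0468) and fell by 3.23 ± 0.76 with NR (adjusted p = 0.0161). Ermap, which encodes an erythroid membrane protein, had medians of 1.75, 9.08 and 0.565 CPM. It fell by 3.60 ± 0.78 with NR (adjusted p = 0.0112), while its difference with age of 1.19 ± 0.64 did not pass (adjusted p = 0.203).

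Among 5 red cell enzymes, 3 rose with age and 4 fell with NR. Without young replicates 1 and 5, 2 rose with age. With library totals 2 rose and 1 fell (Cat) with age and 3 fell with NR, and with the other scalings 2 rose with age. The main fit called 9.68% of all genes higher with age and 4.18% lower with NR. Car1, the other abundant red cell carbonic anhydrase, had medians of 6.03 CPM in young, 36.3 CPM in aged and 2.72 CPM in NR-treated HSC. It rose by 2.38 ± 0.65 (adjusted p = 0.0152) and fell by 3.41 ± 0.69 (adjusted p = 0.00846), unlike Car2, whose difference with NR did not pass. Blvrb, encoding biliverdin reductase B, rose by 0.88 ± 0.13 and fell by 0.63 ± 0.13. Bpgm, which makes the 2,3-bisphosphoglycerate that loosens oxygen binding by haemoglobin, fell by 0.81 ± 0.17 with NR. Prdx2 rose by 0.30 ± 0.10 with age.

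Haem and iron genes were measured on a pair of lists. Of all genes 9.68% rose and 9.63% fell with age, and 4.18% fell with NR. Of 8 haem synthesis genes, 3 rose with age, among them Fech and Urod, and 2 fell with NR, and 1 rose with age without young replicates 1 and 5. Fech, the enzyme that inserts iron into the ring, rose by 0.55 ± 0.17 (adjusted p = 0.0304) and fell by 0.65 ± 0.17 (adjusted p = 0.0258). Urod rose by 0.38 ± 0.12 with age. With library totals in place of TMM sizes, 0 of these 8 genes passed in either comparison. Of 11 iron and haem handling genes, Slc25a37 (the mitochondrial iron importer mitoferrin 1) rose by 0.65 ± 0.16 with age and fell by 0.95 ± 0.16 with NR, Fth1 rose by 0.33 ± 0.11 with age, and Hmox1, which breaks haem down, fell by 1.21 ± 0.38 with age. Fth1 was not called with library totals, where 1 of the 11 rose (Slc25a37) and 2 fell (Hmox1 and Steap3), and without young replicates 1 and 5 Slc25a37 alone was called.

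On the list of 11 late maturation genes 2 rose with age (Isg20 and Fam46c) and 4 fell with NR (Trim10, Bnip3l, Isg20 and Fam46c). The 2 rises were also called without young replicates 1 and 5. Of all genes 9.68% rose with age and 4.18% fell with NR. Isg20 rose by 0.74 ± 0.12 (adjusted p = 0.000265). Trim10 fell by 3.88 ± 0.79 (adjusted p = 0.00846) from an aged median of 5.20 CPM. With library totals 1 of the 4 falls was called. Hbq1b, a θ-like globin gene, was counted in all 5 aged libraries at 0.711 to 2.62 CPM and had 0 counts in all 5 NR-treated ones. No fold is given for it.

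The early erythroid transcription factors and their partners were counted in the same way. Over all genes, 9.68% rose and 9.63% fell with age, and 3.88% rose and 4.18% fell with NR. Of 17 measured, 1 rose with age and 4 fell: Nfe2 by 0.35 ± 0.09 (adjusted p = 0.0105) upwards, and Myb by 1.13 ± 0.24, Sox6 by 0.79 ± 0.16, Ldb1 by 0.73 ± 0.17 and Tal1 by 0.67 ± 0.15 downwards. Nfe2 was not called with library totals, where 6 fell, nor without young replicates 1 and 5, where the same 4 fell. With NR, 1 of 17 rose (Gfi1b, a repressor needed for red cell and platelet formation, by 0.45 ± 0.13, adjusted p = 0.0353) and 0 fell, or 5 and 0 with library totals. Tal1 differed by 0.45 ± 0.15 (adjusted p = 0.0722). Of 8 genes of erythropoietin signalling, Stat5b fell by 0.55 ± 0.12, Jak2 by 0.41 ± 0.13 and Tfr2 by 0.36 ± 0.11 with age, and Tfr2 rose by 0.45 ± 0.11 with NR. Without young replicates 1 and 5, Stat5b alone of the 8 was called with age. The erythropoietin receptor Epor had medians of 11.2, 10.6 and 12.4 CPM and passed in no comparison.

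Markers of other blood cells were measured beside these genes. For all the marker lists here and in the next paragraph, the shares over all genes were as follows. With age 9.68% rose and 9.63% fell, and with NR against untreated aged HSC 3.88% rose and 4.18% fell. In NR-treated aged against young HSC 2.56% were higher and 1.91% lower. Of 12 neutrophil and granule markers, 1 rose with age and 0 fell, with or without young replicates 1 and 5. With NR against untreated aged HSC 11 fell. In NR-treated aged against young HSC 7 were lower and 1 higher (11 and 1 without young replicates 1 and 5). The sum of the 12 markers ranged from 228 to 5677 CPM in young, from 1558 to 2353 CPM in aged and from 269 to 486 CPM in NR-treated HSC. Ly6g, which defines neutrophils, was at 0 in 3 young, 0 aged and 3 NR-treated libraries. It needed the aged libraries to pass the filter (young median 0 CPM and maximum 7.63 CPM, NR-treated maximum 0.298 CPM). Aged libraries were also the deepest in the median, so no difference is read from these zeros. The highest neutrophil sum was that of young replicate 3, one of the pair of young libraries highest in globin, and the lowest were those of young replicates 5 and 2.

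Of 11 B cell and plasma cell markers, 3 rose with age (2 without young replicates 1 and 5), 6 fell with NR and 4 were lower in NR-treated aged than in young HSC (5 without the pair). Their sums were 109 to 869, 615 to 4409 and 93.3 to 171 CPM in young, aged and NR-treated HSC, and Ms4a1 was at 0 in 0, 1 and 2 libraries. Of 10 macrophage markers, 0 rose and 1 fell with age (0 and 0 without the pair), and 3 fell with NR. Their sums were 399 to 2512, 694 to 1619 and 313 to 502 CPM. The 3 include Adgre1, which needed the aged libraries to pass the filter (young median 0.539 CPM, NR-treated maximum 0.596 CPM). Of 8 mast cell, basophil and eosinophil markers, 0 were called with age, with or without the pair, and 2 fell with NR. Their sums were 307 to 2540, 657 to 1420 and 380 to 448 CPM. Of 10 T cell and NK cell markers, 1 rose with age and 1 fell with NR, where 19.3% and 8.07% of all genes were called. Without the pair 1 of these 10 rose and 1 (Cd4) fell with age. Of 11 megakaryocyte and platelet markers, 2 rose and 1 fell with age (2 and 0 without the pair). With NR 2 of the 11 rose (Itga2b and Gp5) while 9 did not pass. The sums overlapped, at 778 to 904, 1002 to 1372 and 829 to 1829 CPM. The part of these other cells in the red cell gene results was not tested.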

How the data were processed

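RNA was measured in 15 HSC libraries by 3′-biased sequencing with a 10 bp unique molecular identifier (UMI). The authors aligned reads with STAR 2.4.2a to GRCm38, removed duplicated UMIs, counted reads on GENCODE exons with featureCounts, filtered low genes, and deposited raw counts per gene. From these deposited counts, levels (CPM with TMM sizes) and differences were computed with edgeR 4.0.16 in R 4.3.3, using the quasi-likelihood test in 1 fit of all 3 groups, with Benjamini-Hochberg adjustment over 16154 genes and a threshold of 0.05. The study's methods used the likelihood ratio test, which was run as an alternative, as were DESeq2 1.42.0, limma 3.58.1 (voom), other library sizes, a filter at a mean of 5 CPM, 2-group fits, thinning to 764119 counts, a replicate block and leaving out each library. Standard errors were the log2 fold change over the square root of F. Fits were tested on simulated counts. Replicate numbers showed no sign of a pairing: same-numbered libraries correlated at −0.217 to 0.118 in their deviations (mean 0.0047). Differently numbered ones correlated at −0.226 to 0.215 (mean −0.0013), and whether mice were paired is not given. No 2 libraries of a group agreed within sampling noise. The members and gene lists were chosen with earlier results of these data known. In each other erythroid list, genes named were up to 3 called genes per direction with the largest change and the 2 most abundant, not all of them described. Counting error alone underlies the 3-count floors. No protein sequence was used here. Some genes of the lists are not reported here.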

Additional observations from a re-analysis of the deposited data

Results flagged for a closer look

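Of 39 groups of 5 libraries checked, 7 had 1 library far from the others by Dixon's criterion, where chance gives about 1 in 20 groups; the 39 share libraries and genes. NR-treated replicate 5 was the high library in 6 of them, with 288 CPM for Hbb-bs, 120.1 CPM for Hbb-bt, 76.5 CPM for Hba-a1 and 60.5 CPM for Hba-a2. Its mature red cell genes made up 0.0562% of counts, and its ratio of mature to early counts was 13.9. The seventh was Car2 in aged replicate 3, at 3218 CPM.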

How the results depend on the processing

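No difference of a member changed its sign under any alternative run, among them leaving out young replicates 1 and 5, an alternative chosen after seeing the data. By age, 4 members were called, against 7 with limma-voom and 0 without those 2 libraries (3 at an unadjusted p under 0.05), and 23 of the 76 other erythroid genes (here with Hbq1b, which passed the filter through the aged libraries), against 13 without those 2 libraries and 10 after thinning. Of all genes 3120 were called, against 1862 and 1467. With library totals, the median of all genes by age moved to −0.16 and the calls to 1020 higher and 2485 lower, from 1564 and 1556, and those of the other erythroid genes to 7 higher and 13 lower. With NR against aged, thinning left 409 of 1303 calls over all genes and 10 of 22 other erythroid genes. In NR-treated aged against young HSC, thinning left 401 of 722 calls over all genes, limma-voom called 2 members in place of 5, and the 3 other erythroid genes became 7 with the likelihood ratio test, 6 with DESeq2, 0 with limma-voom (16 at an unadjusted p under 0.05), 1 at a mean of at least 5 CPM and 1 in a 2-group fit.

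Leaving out 1 library at a time gave 1953 to 3533, 422 to 1535 and 452 to 922 calls over all genes in the 3 comparisons, 1 to 6, 5 to 7 and 3 to 5 members, and 13 to 26, 13 to 26 and 0 to 6 other erythroid genes. Aged replicate 3, the deepest library, gave the lowest of the first 2 counts over all genes (1953 and 422) and of the other erythroid genes (13 and 13). The second count over all genes was also low without aged replicate 5 (607) and NR-treated replicates 3 (538) and 4 (534), as was the third without NR-treated replicate 4 (452). Of the other erythroid genes, 15 were called by age without young replicate 4 and 14 with NR without NR-treated replicate 3. In the third comparison 6 were called without young replicate 2 and 1 without NR-treated replicate 1 or 5, and 0 were called without young replicate 3 (19 at an unadjusted p under 0.05) or NR-treated replicate 4 (21). Median shares of the mature red cell genes were 0.0786% to 0.176% in young, 0.414% to 0.551% in aged and 0.00772% to 0.00913% in NR-treated HSC, the young one being 0.173% without replicate 1 and 0.176% without replicate 2 or 5. With the replicate number as a block, 3, 6 and 5 members, 18, 18 and 2 other erythroid genes and 2836, 1048 and 589 genes in all were called; Hba-a1 by age (adjusted p = 0.0586) and Alas2 with NR (0.0653) lost their calls. The filter at a mean of 5 CPM removed Alas2.

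Alas2 and Slc4a1 had 3 counts or fewer in 6 and 4 of 15 libraries. The copies of each globin gene share most of their sequence, and the identity of the mice behind young replicates 1 and 5 was not settled.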
